A study of Mus musculus with 2 samples.

Results

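The interleukin 1 family genes described here are 10 rows of a gene count table: the ligands Il1a, Il1b and Il18, the antagonist Il1rn, and the receptor chains Il1r1, Il1r2, Il1rap, Il1rl1, Il18r1 and Il18rap. They were taken by name, 10 of 31053 genes, and 10 of 10 had at least 20 unique molecular identifiers (UMIs, counts of captured transcripts) in all. The cells came from Apoe-/- mice, which lack apolipoprotein E and develop atherosclerotic lesions on a western diet. One group was given saline and the other nt-LNA at 30 mg/kg, both once a week over 4 weeks on that diet, so the Apoe deletion and the diet are shared by both groups. LNA usually stands for locked nucleic acid, and the labels used here do not spell out "nt". Live cells with CD45 and without CD3 on their surface were sorted from the digested aortic arch and thoracic aorta, and 1 droplet-based single-cell 3' library was sequenced per treatment. The sources used here do not give the number of mice behind a library, nor their age or sex.

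Interleukin 1 alpha and interleukin 1 beta bind the same receptor chain, IL1R1, which then recruits the accessory chain IL1RAP and signals through the adaptor MYD88 to the transcription factor NF-kappa B. Interleukin 1 beta and interleukin 18 are made as inactive precursors that caspase-1 cleaves inside an inflammasome, whereas interleukin 1 alpha is active as a precursor. The receptor antagonist and the decoy receptor IL1R2 hold the signal down, the first by occupying IL1R1 and the second by trapping ligand without signalling. IL1RL1, also called ST2, is the receptor of interleukin 33 and uses IL1RAP too, while interleukin 18 signals through IL18R1 and IL18RAP. In atherosclerosis, interleukin 1 beta is a known driver of vessel inflammation.

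The 7613 cells (2742 saline and 4871 nt-LNA) fall into the 20 clusters of the authors, and the deposited counts are summed per cluster with both libraries pooled. Levels are CPM (counts of the gene scaled by the UMI total of the cluster), with exact Poisson 95% intervals. Cluster totals ran from 212515 UMIs (cluster 16) to 12985745 (cluster 0). With 1 pooled count per cluster, and clusters made from the same expression values, no test was made, and all intervals cover counting error only. Member levels in saline against nt-LNA cells are not analysed here, because the counts do not separate them. A higher CPM can come from more cells with the transcript or from more transcript per cell, which cannot be told apart. Tags come from transcript 3' ends and are not scaled by gene length, so each gene is compared across clusters and not with other genes.

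Of the 20 clusters, 10 could be named from marker genes. They are B cell-like (1), NK cell-like (3), proliferating-like (6), neutrophil-like (7), mature dendritic cell-like (8), nonclassical monocyte-like (15), group 2 innate lymphoid cell-like (16), type 1 dendritic cell-like (17), plasmacytoid dendritic cell-like (18) and serous cavity macrophage-like (19). Il1rl1 is itself 1 of the 5 markers behind the name of cluster 16. Besides 4 markers of mature dendritic cells, cluster 8 had 2 of type 2 dendritic cells among its 50 leading genes. The type 2 list summed to 1303 CPM there, against at most 608 CPM elsewhere. Unnamed cluster 10 had 3 markers of classical monocytes and 3 of foamy macrophages among its 50 leading genes, and unnamed cluster 11 had 2 of group 2 and 1 of group 3 innate lymphoid or type 17 cells, with Il17a as its first leading gene. Unnamed cluster 0, deposited as Macrophages like clusters 6, 7, 8, 10, 15, 17, 18 and 19, carried 1965 CPM of the macrophage complement gene C1qa but was led by smooth muscle and basophil genes. Ptprc, which encodes CD45, was found in every cluster, and Cd3e, which encodes a chain of CD3, also appeared in all 20, with up to 1331 CPM in cluster 5. Apoe reached at most 17.5 CPM (cluster 15), and 3' tags can lie outside the disrupted part of that gene, so it does not check the genotype. Clusters 2, 5, 14 and 16 combined few UMIs per cell with 7.24% to 11.2% mitochondrial UMIs, and the 2 libraries shared 2 cell barcodes.

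Most members were high in few clusters: Il1a, Il1b, Il1rn and Il1r2 in myeloid ones, Il1rl1 and Il18r1 in lymphoid ones, and Il18rap in lymphoid clusters and in neutrophil-like cluster 7. A level at least 2-fold above the mean of the other 19 clusters was seen in 25 of 200 pairs of member and cluster, and a level at least 2-fold below it in 131. Over all 14202 genes with at least 20 UMIs, 9.45% of pairs were that much higher and 29.7% that much lower. The 25 pairs lay in 10 clusters, and 22 of them rested on at least 10 UMIs of the member. The others were Il1r1 in clusters 16 (1 UMI) and 11 (7 UMIs) and Il18r1 in cluster 16 (8 UMIs). Neutrophil-like cluster 7 held 6 of the 25 pairs (Il1a, Il1b, Il1rn, Il1r2, Il1rap and Il18rap), where 7.28% of all genes were that much higher. The median ratio of the 10 members there was 3.45, against 0.70 over all genes. Cluster 16 held 4 (Il1r1, Il1rl1, Il18r1 and Il18rap; 16.6% of all genes) and cluster 10 held 3 (Il1b, Il1rn and Il18; 7.37%). Clusters 0, 3, 8, 11 and 15 held 2 each, against 8.21%, 5.83%, 6.26%, 6.63% and 7.46% of all genes, and clusters 17 and 19 held 1 each, against 6.24% and 9.06%.

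**Figure D1:**
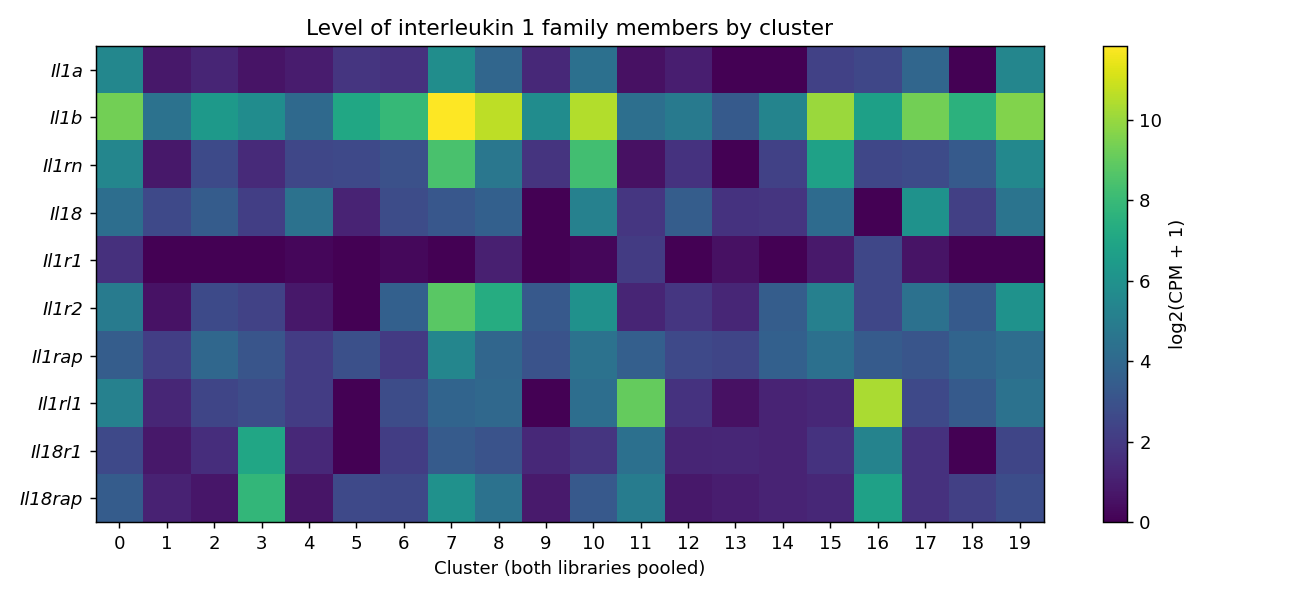
Level of each member (rows) in each cluster (columns, both libraries pooled) as log2(CPM + 1), darker for lower and brighter for higher. Il1b, Il1rn and Il1r2 are bright in cluster 7, Il1rl1 in clusters 11 and 16, and Il18r1 and Il18rap in cluster 3, while Il1r1 is near 0 throughout.

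Il1b, the gene of the main secreted agonist, gave 46104 UMIs and was found in all 20 clusters. Its level ran from 9.18 CPM in cluster 13 over a median of 118 CPM to 3659 CPM (3596 to 3721) in neutrophil-like cluster 7. Mature dendritic cell-like cluster 8 followed at 1637 CPM (1604 to 1671), cluster 10 at 1418 CPM (1388 to 1448) and nonclassical monocyte-like cluster 15 at 1064 CPM (1008 to 1121). Each of these neighbours in the order was apart by more than counting error. The step from cluster 8 to cluster 10 was small, a ratio of 1.15 (1.12 to 1.19), and it was not resolved per cell, with 2435 Il1b UMIs per 100 cells in cluster 8 and 2466 in cluster 10 (ratio 0.99, 0.96 to 1.02). Clusters 17 and 0 did not differ beyond counting error, at 643 and 635 CPM. Cluster 0 stood near the mean of the others: its ratio was 1.18, and 0.96 against the pooled level of the other clusters.

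By supply rather than level, no single cluster dominated Il1b. Cluster 7 gave 28.7% of the UMIs, cluster 8 19.8%, cluster 10 19.2% and the large cluster 0 17.9%. The clusters deposited as B, T or NK cells (1, 2, 3, 4, 5, 9, 11, 12, 13, 14 and 16) had between 9.18 and 132 CPM. Free RNA can give UMIs in cells that do not express a gene, so the UMIs of the neutrophil calgranulin gene S100a8 and the lysozyme gene Lyz2 are given beside them. In those clusters there were 38.5 to 95.6 Il1b UMIs per 100 S100a8 UMIs. The same figure was 8.36 in cluster 7, 121 in cluster 10, 381 in cluster 0 and 26.8 over all clusters. Per 100 Lyz2 UMIs those clusters had 11.8 to 56.4. That figure was 68.3 in cluster 7, 9.08 in cluster 10, 11.1 in cluster 0 and 19.4 over all clusters. The part of free RNA in the low Il1b levels of the clusters deposited as B, T or NK cells was not tested. In cluster 8 there were 1794 Il1b UMIs per 100 S100a8 UMIs, and the neutrophil surface gene Ly6g had 0 CPM there. The part of neutrophil RNA in the Il1b level of cluster 8 was not tested either.

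Il1a, which encodes the agonist that needs no inflammasome, gave 1071 UMIs, and its order of clusters was not that of Il1b. Cluster 7 had 54.8 CPM of it (47.4 to 62.9), cluster 0 had 43.7 CPM (40.2 to 47.5) and serous cavity macrophage-like cluster 19 had 41.7 CPM (27.7 to 60.3), with a median of 1.93 CPM over the 20 clusters and 0 UMIs in 3. Clusters 0 and 19 did not differ beyond counting error, and cluster 7 stood 1.25 times (1.06 to 1.47) above cluster 0. Per cell cluster 19 led, with 104 Il1a UMIs per 100 cells (68.9 to 150), on 28 UMIs from 27 cells. Its cells held a mean of 24869 UMIs, the most of any cluster. Cluster 0 had 60.4 and cluster 7 had 51.3, which did not differ beyond counting error. Cluster 0 alone gave 53.0% of the Il1a UMIs. Dendritic clusters 8 and 17 stood lower, at 13.99 and 13.98 CPM, and cluster 10 at 19.7 CPM lay just under the 2-fold line.

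The balance of the 2 agonist transcripts differed between myeloid clusters. For every 100 Il1b UMIs there were 6.89 Il1a UMIs (6.31 to 7.50) in cluster 0 and 5.32 (3.50 to 7.78) in cluster 19. The same figure was 1.5 (1.29 to 1.72) in cluster 7, 1.39 in cluster 10, 0.85 in cluster 8 and 0.36 (0.12 to 0.84) in cluster 15. The intervals of clusters 0 and 19 overlapped each other and none of the other 4. Cluster 15 thus combined the fourth highest Il1b level with only 5 Il1a UMIs.

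The start regions of Il1a and Il1b are shown because the genes lie next to each other on chromosome 2 and both were highest in cluster 7. RefSeq promoters of build GRCm38.p6 were matched for 10 of 10 members (16 start sites), and the 250 bases before each start are used. Another build, mm9, is named for the counts, so the coordinates belong to the promoter table only. Each window was searched on both strands for TATAAA, a core promoter element, GAGGAA, the core of the PU.1 motif of myeloid cells, GATAA, the core of the GATA factor motif, GGTGTG, the motif of T-box factors, and the kappa B consensus. No 2 of the matches printed here overlap. Of 32851 promoters in the table, 12.4% held TATAAA, 23.3% GAGGAA, 22.6% GATAA, 16.3% GGTGTG and 3.90% the kappa B consensus. Capitals mark a match, sequences run 5′ to 3′ on the gene's strand, and a match describes letters and not a bound site. Il1a lies on the minus strand with its window at chr2:129309973-129310222, and Il1b on the minus strand at chr2:129371140-129371389.
Il1a: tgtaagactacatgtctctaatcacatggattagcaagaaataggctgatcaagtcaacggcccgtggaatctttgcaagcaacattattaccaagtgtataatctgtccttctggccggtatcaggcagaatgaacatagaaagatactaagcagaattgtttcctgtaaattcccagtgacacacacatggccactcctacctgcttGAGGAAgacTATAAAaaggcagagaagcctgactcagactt
Il1b: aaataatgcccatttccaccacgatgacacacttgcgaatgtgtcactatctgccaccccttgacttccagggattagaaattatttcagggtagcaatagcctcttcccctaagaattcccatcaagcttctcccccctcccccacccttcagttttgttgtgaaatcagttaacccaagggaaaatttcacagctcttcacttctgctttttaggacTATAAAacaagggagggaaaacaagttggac
Both windows hold TATAAA at nearly the same distance, 32 to 27 bases before the start in Il1a and 31 to 26 in Il1b. Il1a also holds GAGGAA 41 to 36 bases before the start.

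Il1rn, the gene of the receptor antagonist, gave 4176 UMIs and was concentrated in 2 clusters. Cluster 7 had 348 CPM of it (329 to 368), cluster 10 had 306 CPM (292 to 320) and cluster 15 had 108 CPM (91.1 to 128), with a median of 5.15 CPM and 0 UMIs in cluster 13. Cluster 7 was 1.14 times (1.06 to 1.22) above cluster 10 in CPM. Per cell cluster 10 led, with 532 Il1rn UMIs per 100 cells against 326 in cluster 7, so which of the 2 is higher depends on the scale. Cluster 10 supplied 45.6% of all Il1rn UMIs and cluster 7 30.1%.

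Antagonist and agonist transcripts did not keep 1 ratio. Cluster 10 had 21.6 Il1rn UMIs (20.5 to 22.7) for every 100 Il1b UMIs, cluster 15 had 10.2 (8.50 to 12.1) and cluster 7 had 9.52 (8.97 to 10.1). Cluster 0 had 6.64 and cluster 19 had 5.70. Mature dendritic cell-like cluster 8 had 1.5 (1.26 to 1.78) and type 1 dendritic cell-like cluster 17 had 0.87 (0.42 to 1.60). Plasmacytoid dendritic cell-like cluster 18 had 4.72 (1.5 to 11.4), on 5 Il1rn UMIs, and cluster 13 had 0 Il1rn beside 20 Il1b UMIs. Clusters 8 and 10, not resolved in Il1b per cell, thus lay far apart in Il1rn, at 24.6 and 306 CPM. The highest ratio of all, 30.3 (19.9 to 45.1), belonged to the antibody-gene-rich cluster 4 on 33 Il1rn and 109 Il1b UMIs. Its Il1rn level was only 4.73 CPM.

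**Figure D2:**
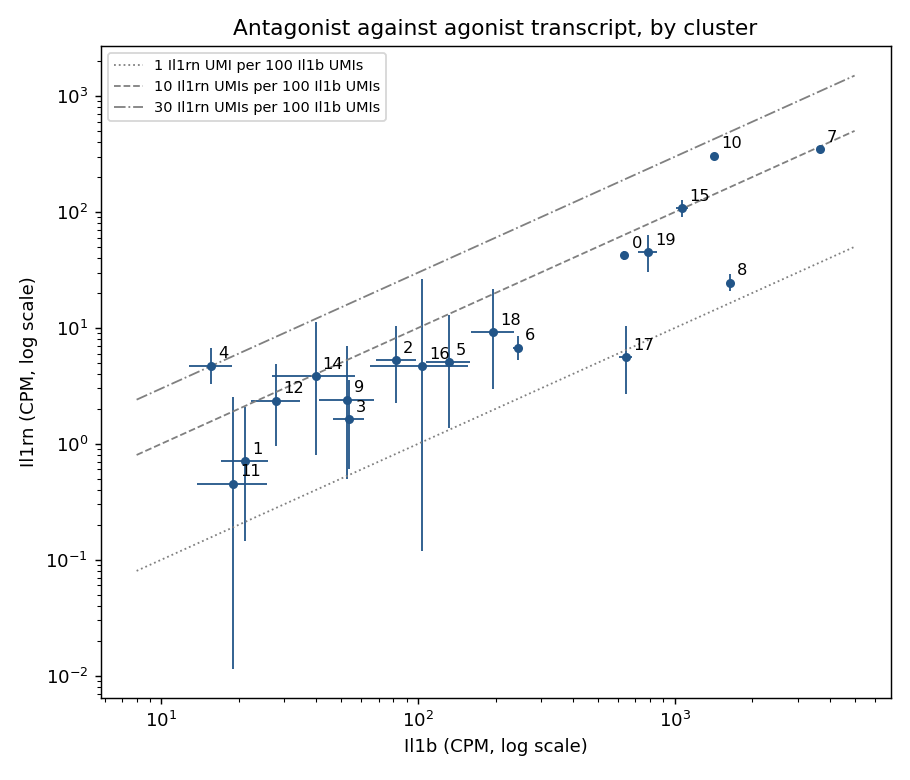
Il1rn against Il1b, both in CPM on log axes, 1 numbered point per cluster with exact Poisson 95% intervals; grey lines mark 1, 10 and 30 Il1rn UMIs per 100 Il1b UMIs. Cluster 10 lies near the upper lines and clusters 8 and 17 near the lowest, while cluster 13, with 0 Il1rn UMIs, is not drawn.

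Il18, whose product drives interferon gamma release by lymphocytes, followed neither Il1a nor Il1b. Of its 1011 UMIs the highest level was in type 1 dendritic cell-like cluster 17, at 65.4 CPM (54.1 to 78.4), which was 1.84 times (1.45 to 2.31) the 35.6 CPM (31.1 to 40.7) of cluster 10. Below these, clusters 19, 4, 0 and 15 had 22.3, 21.1, 18.3 and 16.8 CPM, and no neighbours in that order differed beyond counting error. The median was 7.01 CPM, and clusters 9 and 16 had 0 UMIs. Cluster 7, first for Il1a, Il1b and Il1rn, had only 8.30 CPM (5.60 to 11.8) of Il18, below the mean of the others. Cluster 4 gave 14.5% of all Il18 UMIs, 147 in number, although it was led by antibody genes. By supply cluster 0 led with 23.5%, followed by cluster 10 with 22.0%.

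**Figure D3:**
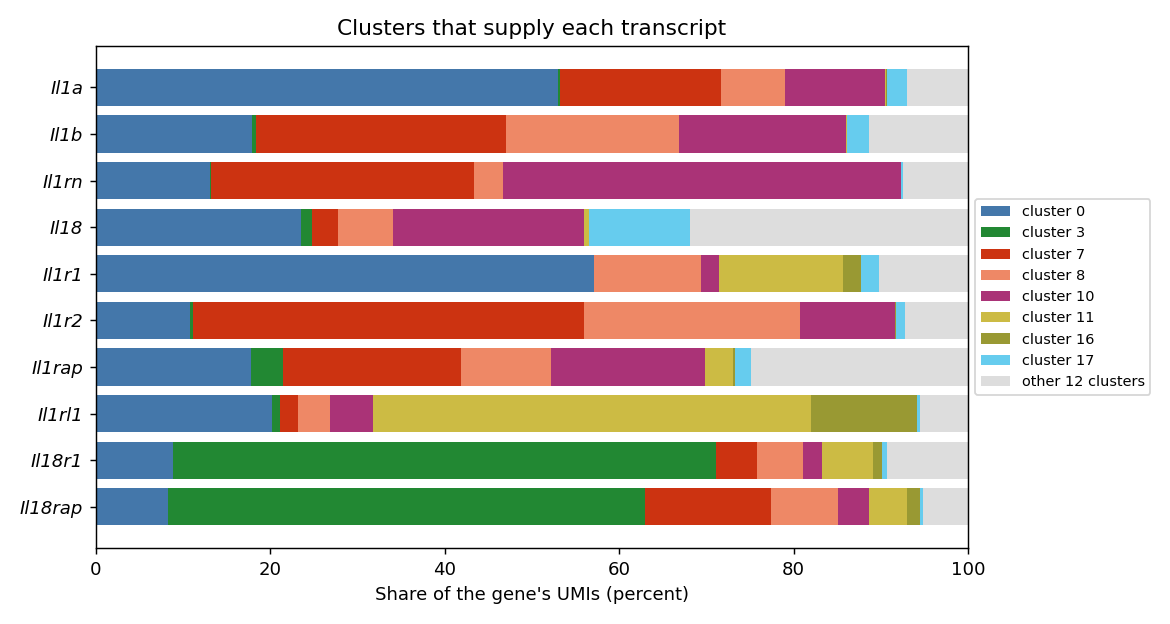
Share of each member's UMIs, in percent, that came from each of 8 clusters and from the other 12 together. Cluster 10 gives the largest part of Il1rn, cluster 0 of Il1a, cluster 7 of Il1r2, cluster 11 of Il1rl1 and cluster 3 of Il18r1 and Il18rap, whereas Il18 and Il1rap are spread widely.

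Among the receptor chains, the signalling receptor Il1r1 was barely detected in these leukocytes. It gave 49 UMIs in all, 28 of them in cluster 0 (2.16 CPM, 1.43 to 3.12), 7 in cluster 11 (3.17 CPM) and 6 in cluster 8 (1.08 CPM), and 10 clusters had 0. The level of 4.71 CPM in cluster 16 is 1 UMI, with an interval of 0.12 to 26.2. No neighbours in the order of clusters were resolved, 0 of 19. Cluster 7, with its 13229 Il1b UMIs, had 0 Il1r1 UMIs, with an interval of 0 to 1.02 CPM. Cluster 0 was also the cluster with the most fibroblast marker UMIs: Col1a1, Col3a1, Dcn and Lum summed to 114 CPM, with 4 of 4 detected, against at most 47.1 CPM elsewhere. Its smooth muscle markers summed to 430 CPM, against at most 34.6 CPM elsewhere. The part of such cells in the Il1r1 level was not tested.

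The decoy receptor Il1r2 gave 3588 UMIs. It stood at 444 CPM (423 to 466) in cluster 7, 2.79 times (2.57 to 3.03) the 159 CPM (149 to 170) of cluster 8, with a median of 9.01 CPM and 0 UMIs in cluster 5. Clusters 19 and 10 came next at 65.5 and 62.6 CPM and did not differ beyond counting error. Clusters 7 and 8 supplied 44.8% and 24.8% of the UMIs, and they led per cell as well, with 416 and 237 UMIs per 100 cells. Neutrophil markers summed to 163 CPM in cluster 8 and 108507 CPM in cluster 7, with Ly6g at 0 in cluster 8. The part of neutrophil RNA in the Il1r2 level of cluster 8 was not tested. Per 100 Il1b UMIs, clusters 7 and 8 had 12.1 (11.5 to 12.8) and 9.73 (9.08 to 10.4) Il1r2 UMIs, against 4.42 in cluster 10 and 3.30 in cluster 15. Per Il1b UMI, cluster 8 was thus lower than cluster 10 in antagonist and higher in decoy transcript.

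Il1rap, the shared accessory chain, was the most evenly spread member, with a top level 4.22 times the mean of the other clusters, the lowest such ratio of the 10. Its 749 UMIs covered all 20 clusters, from 3.09 CPM in cluster 6 over a median of 9.83 CPM to 42.3 CPM (35.9 to 49.6) in cluster 7. Cluster 10 had 21.2 CPM (17.7 to 25.1), and only the step from cluster 7 to cluster 10 exceeded counting error among 19 neighbours. Per cell even that step was unresolved, at 39.6 against 36.9 UMIs per 100 cells, and cluster 19 had the highest value, 44.4 on 12 UMIs. The clusters rich in Il1rl1, 11 and 16, had 10.9 CPM and 9.41 CPM of this partner chain, near the median, the latter on 2 UMIs.

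Il1rl1, the interleukin 33 receptor, was highest in group 2 innate lymphoid cell-like cluster 16 and unnamed cluster 11. Cluster 16 had 1294 CPM (1146 to 1456) and cluster 11 had 521 CPM (491 to 552). Every other cluster was at 35.5 CPM or below, and the median was 5.33 CPM. In CPM cluster 16 was 2.49 times (2.17 to 2.84) above cluster 11, but per cell it was lower, with 246 against 345 Il1rl1 UMIs per 100 cells (ratio 0.71, 0.62 to 0.81). Cells of cluster 16 held a mean of 1897 UMIs and those of cluster 11 held 6623. Cluster 11 gave 50.3% of the 2283 UMIs and cluster 16 gave 12.05%. Both clusters carried the type 2 regulator Gata3, at 488 CPM (cluster 11) and 734 CPM (cluster 16), with the cytokines Il5 at 79.4 and 51.8 CPM, Il13 at 31.7 and 254 CPM and Areg at 1461 and 2249 CPM. The list of group 3 innate lymphoid or type 17 cells also had its highest sums there, at 691 CPM in cluster 11, with 4 of 5 genes detected, and 1247 CPM in cluster 16, with 2 of 5, next to 664 CPM in mature dendritic cell-like cluster 8. Il17a, a type 17 cytokine gene, led cluster 11. Cd3e stood at 22.2 and 65.9 CPM in clusters 11 and 16, both deposited as T cells. The 8 listed T cell markers were all detected in both and summed to 982 and 988 CPM. That sum was 926 CPM in NK cell-like cluster 3 and 14640 CPM in cluster 5.

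By supply, cluster 0 came second for Il1rl1, ahead of cluster 16, with 461 UMIs, 20.2% of all, at 35.5 CPM (32.3 to 38.9). Mast cells and basophils are also known to carry ST2, and their markers were highest in the same cluster. The 8 listed genes were all detected there and summed to 501 CPM, against at most 262 CPM elsewhere, and Mcpt8 and Prss34 stood at 45.6 and 68.0 CPM against at most 3.32 and 1.61 CPM. Cluster 10, with 262 CPM of that list, had 18.1 CPM of Il1rl1. Cluster 7, with 224 CPM of it, had 13 CPM, and cluster 8, with 1.97 CPM of it, had 14.9 CPM. The part of such cells in the Il1rl1 level of cluster 0 was not tested.

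Both start sites of Il1rl1 are shown, since a distal and a proximal promoter are known for this gene and its 2 high clusters also carried Gata3. Their windows, on the plus strand, are chr1:40429320-40429569 for site 1 and chr1:40439379-40439628 for site 2. The window of Il1r2, plus strand, chr1:40085843-40086092, is set beside them as that of a gene high in other clusters.
Il1rl1 site 1: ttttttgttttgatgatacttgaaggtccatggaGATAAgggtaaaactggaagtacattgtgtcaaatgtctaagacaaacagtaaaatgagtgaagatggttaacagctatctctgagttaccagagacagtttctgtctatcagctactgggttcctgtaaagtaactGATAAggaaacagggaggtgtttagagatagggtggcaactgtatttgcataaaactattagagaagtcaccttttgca
Il1rl1 site 2: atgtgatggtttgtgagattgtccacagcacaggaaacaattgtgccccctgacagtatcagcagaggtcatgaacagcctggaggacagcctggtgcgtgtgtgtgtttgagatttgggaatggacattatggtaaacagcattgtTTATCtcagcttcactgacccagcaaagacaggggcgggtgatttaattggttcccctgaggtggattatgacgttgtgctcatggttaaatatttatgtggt
Il1r2: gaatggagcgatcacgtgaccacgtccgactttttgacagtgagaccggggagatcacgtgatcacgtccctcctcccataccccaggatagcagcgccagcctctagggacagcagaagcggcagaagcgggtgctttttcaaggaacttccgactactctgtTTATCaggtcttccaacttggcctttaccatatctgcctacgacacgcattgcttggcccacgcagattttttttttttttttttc
Site 1 of Il1rl1 holds GATAA at 216 to 212 and at 79 to 75 bases before the start. Site 2 holds it on the other strand at 103 to 99 bases, where it reads TTATC. Il1r2 holds it too, on the other strand at 86 to 82 bases, so the letters are not particular to Il1rl1. The counts do not tell which start site was used.

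Il18r1 and Il18rap, the 2 chains of the interleukin 18 receptor, were highest in NK cell-like cluster 3. Il18r1 stood there at 127 CPM (116 to 140) against a mean of 5.50 CPM in the other clusters, and Il18rap at 231 CPM (216 to 247) against 14.3 CPM. Their medians over the 20 clusters were 2.26 and 4.33 CPM. Cluster 3 supplied 62.2% of the 752 Il18r1 UMIs and 54.6% of the 1553 Il18rap UMIs. It also held 344 CPM of Ifng, the cytokine that interleukin 18 is known to induce in these cells, and 636 CPM of the NK receptor gene Ncr1. Its level of Il18 itself was 3.54 CPM (1.88 to 6.05).

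In CPM, cluster 16 came second for both chains. It had 37.6 CPM of Il18r1 (16.3 to 74.2, on 8 UMIs) and 108 CPM of Il18rap (68.6 to 162, on 23 UMIs). Cluster 11 had 19.95 and 30.8 CPM. For Il18r1 clusters 16 and 11 did not differ beyond counting error. Per cell cluster 16 did not keep that place. It had 7.14 Il18r1 UMIs per 100 cells, against 13.2 in cluster 11, 10.7 in cluster 8 and 9.07 in cluster 7. The step to cluster 11 was not resolved (ratio 0.54, 0.22 to 1.16). For Il18rap it had 20.5 per 100 cells, against 58.3 in neutrophil-like cluster 7 and 31.7 in cluster 8. Cluster 16 supplied 1.06% of Il18r1 and 1.48% of Il18rap UMIs.

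The ratio of the 2 chains differed between clusters. Cluster 7 had 62.2 CPM of Il18rap (54.4 to 70.9) but 9.68 CPM of Il18r1 (6.74 to 13.5), that is 643 Il18rap UMIs per 100 Il18r1 UMIs (449 to 946) against 181 (162 to 203) in cluster 3. In cluster 10 the figure was 350 (198 to 654), in cluster 8 it was 298 (206 to 437), and in cluster 11 it was 155 (104 to 231). Cluster 0 had 193 (142 to 263) and cluster 6 had 143 (92.4 to 224). The intervals of clusters 7 and 8 lay above that of cluster 3, and those of clusters 0, 6, 10 and 11 overlapped it. NK cell markers summed to 357 CPM in cluster 7 and 913 CPM in cluster 16 (6 of 8 detected), against 17474 CPM in cluster 3. Ncr1 stood at 7.47 CPM in cluster 7. The part of NK cells in the Il18rap level of cluster 7, or in the Il18r1 and Il18rap levels of cluster 16, was not tested.

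**Figure D4:**
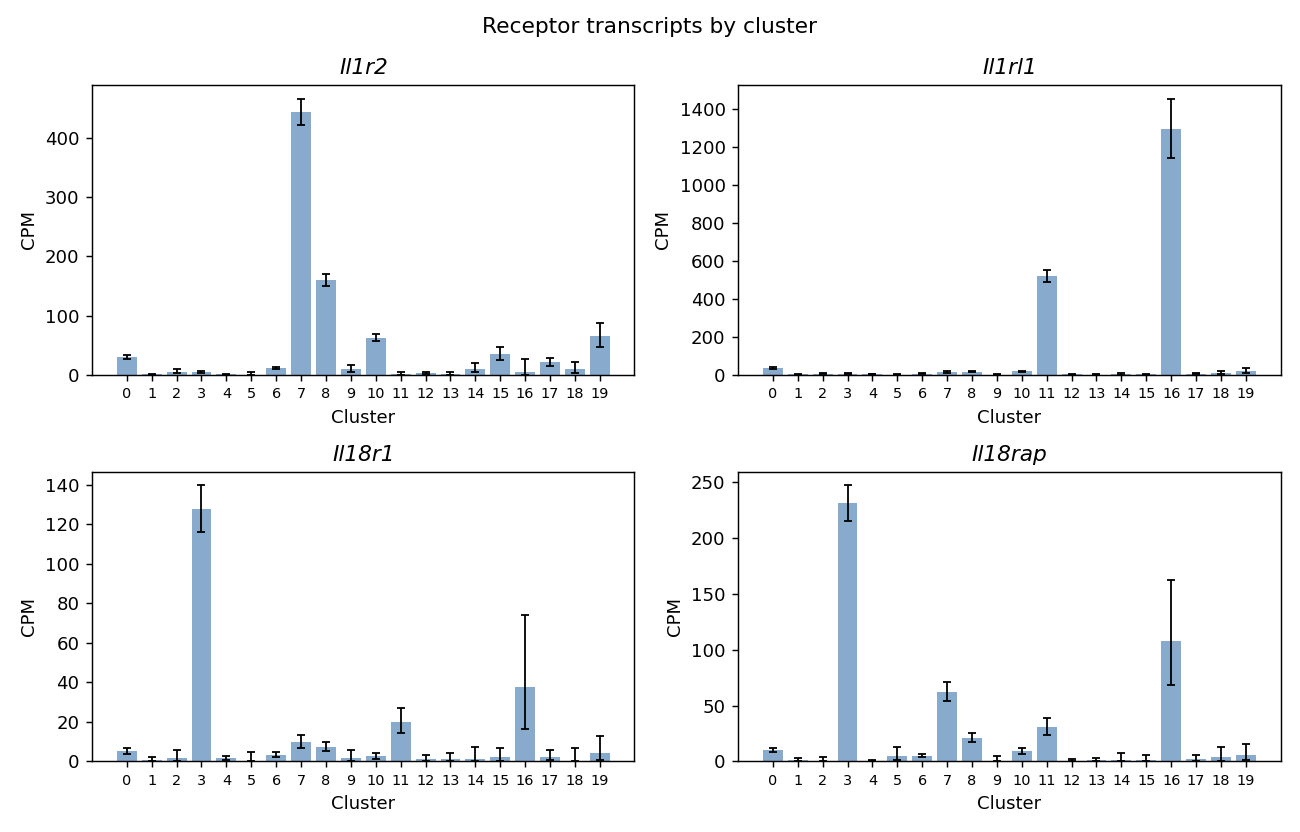
Level in CPM of 4 receptor genes in the 20 clusters, as bars from 0 with exact Poisson 95% intervals; the scale differs between panels. Il1r2 peaks in clusters 7 and 8, Il1rl1 in clusters 16 and 11, and Il18r1 and Il18rap in cluster 3, with a further Il18rap bar in cluster 7.

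The Il18rap window is shown as that of a gene high both in NK cell-like and in neutrophil-like cells. It lies on the plus strand at chr1:40515112-40515361.
Il18rap: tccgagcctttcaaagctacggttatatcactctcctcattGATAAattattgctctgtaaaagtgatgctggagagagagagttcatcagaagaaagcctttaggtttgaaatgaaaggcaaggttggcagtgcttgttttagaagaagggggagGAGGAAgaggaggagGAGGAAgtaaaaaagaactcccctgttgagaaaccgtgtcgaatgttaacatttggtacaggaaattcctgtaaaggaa
It holds GAGGAA at 94 to 89 and at 79 to 74 bases before the start, inside a purine-rich stretch, and GATAA at 209 to 205 bases. None of the 3 start windows of Il18r1 holds GATAA, 1 of them holds GGTGTG, and another holds GAGGAA on the other strand at 6 to 1 bases before the start.

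Neighbouring genes of the receptor locus did not share 1 pattern. On chromosome 1 the protein-coding order is Il1r2, Il1r1, Il1rl2, Il1rl1, Il18r1 and Il18rap. Across the 20 clusters, Pearson's r of log2(CPM + 1) was 0.87 for Il18r1 with Il18rap and 0.63 for Il1rl1 with Il18r1. It was 0.66 for Il1rl1 with Il18rap, but 0.17 for Il1r2 with Il1rl1. With Il1r1, which had only 49 UMIs, r was 0.01 for Il1r2 and 0.80 for Il1rl1. On chromosome 2, adjacent Il1a and Il1b had an r of 0.85, while Il1b had 0.90 with Il1rn and 0.89 with Il1r2, which are not its neighbours. Il18 and Il18rap, ligand and receptor chain, had an r of -0.20. These correlations describe 20 pooled clusters that share libraries and differ in depth, and have no p-value.

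Among all other genes with at least 200 UMIs, those most like a member by the same r were named as the first 3 for each. They were Gm34084 (0.96), Tgfbi (0.95) and Cd300c2 (0.95) for Il1b, and Trem1 (0.96), Clec4n (0.95) and Ifi204 (0.94) for Il1rn. Trim47, Mt1 and Hacd4 (0.90 to 0.91) were most like Il1a, Tbc1d9, Slc7a7 and BC028528 (0.85 to 0.88) most like Il18, and Basp1, AI839979 and Trem1 (0.89 to 0.90) most like Il1r2. Degs1, Klhl2 and Cln3 (0.87 to 0.89) were most like Il1rap and Tanc2, Mdfic and Acvr2a (0.92 to 0.95) most like Il1rl1. For Il18r1 they were AW112010, Serpinb9 and the interleukin 2 receptor chain gene Il2rb (0.89 to 0.90), and for Il18rap Tnfrsf9, Stk39 and Chst11 (0.89 to 0.92). These names depend on the measure: 12 of the 27 remained with Spearman's rho and 11 with a pseudocount of 10 CPM.

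The rest of the pathway was read from a list of 42 genes, 41 of them in the table and 35 with at least 20 UMIs. Il33, the ligand of Il1rl1, gave 19 UMIs in all, and Il36a, Il36b, Il1f10 and Il1rapl1 gave 0. In cluster 7, 5 of the 35 were at least 2-fold higher and 4 at least 2-fold lower than the mean of the other clusters, against 7.28% and 25.7% of all genes. The higher ones were Il1f9 (interleukin 36 gamma, a further agonist of the family), Nlrp3, Tirap, Irak2 and Nfkbia. Il1f9 was the most restricted, at 198 CPM (184 to 213) against a mean of 2.95 CPM. The inflammasome sensor Nlrp3 stood at 228 CPM (212 to 244) in cluster 7, with cluster 10 at 110 CPM, cluster 11 at 4.99 CPM and cluster 16 at 0. The inflammasome adaptor Pycard and protease Casp1 did not share that pattern, with Pycard at 154 and Casp1 at 29.9 CPM in cluster 7.

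In cluster 10, 6 of the 35 were higher (7.37% of all genes) and 1 lower (23%). The higher ones were Nlrp3, Myd88, Capn2, a calpain, and the protease genes Elane, Prtn3 and Ctsg. In cluster 17, where Il18 was highest, 1 was higher (6.24% of all genes), Myd88 at 65.4 CPM, and 15 were lower (36.2%). In cluster 3, 2 were higher (5.83% of all genes), Capn2 and S100a10, and 9 lower (31.5%).

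In the Il1rl1 clusters, Casp4, the NF-kappa B subunit gene Nfkb1, Nfkbia, Nfkbiz and Tnfaip3 were higher in both. Cluster 16 had 8 higher (16.6% of all genes) and 8 lower (41.3%). Cluster 11 had 7 higher (6.63%) and 7 lower (33.8%). Nfkb1 stood at 1200 CPM (cluster 16) and 553 CPM (cluster 11), the inhibitor Nfkbia at 1619 and 3543 CPM, Nfkbiz at 847 and 784 CPM and the deubiquitinase Tnfaip3 at 1327 and 1194 CPM. Casp4 had 287 and 151 CPM, and Casp1 was higher in cluster 11 only, at 62.1 CPM. In cluster 16 the count also includes Irak4 on 10 UMIs, the inhibitory receptor Sigirr on 8 and Il1rl2 on 1. Of the other brakes on the pathway, Irak3 was highest in cluster 15 at 51.8 CPM (40.2 to 65.7), and Il18bp, which binds interleukin 18, was highest in cluster 19 at 11.9 CPM (5.14 to 23.5).

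**Figure D5:**
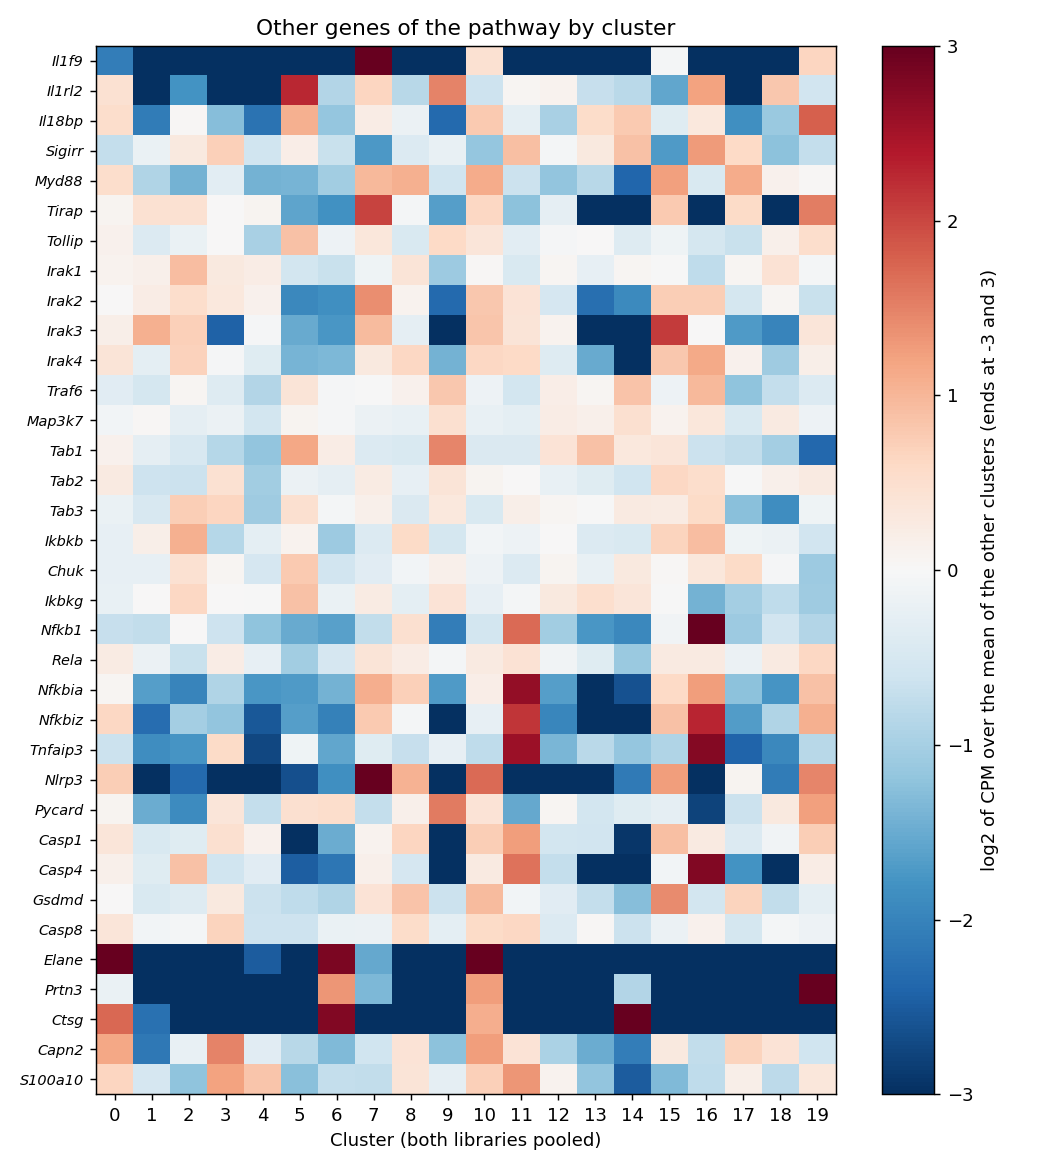
log2 of the level over the mean of the other clusters for the 35 other pathway genes with at least 20 UMIs, by cluster; red is higher, blue lower, and colours end at -3 and 3. The red block of Nfkb1, Nfkbia, Nfkbiz and Tnfaip3 lies in clusters 11 and 16, and Il1f9 and Nlrp3 are red in cluster 7.

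The treatments can be set beside these levels only as shares of cells, with exact Clopper-Pearson 95% intervals and 1 library each. The intervals cover counting of cells only and do not test a treatment. The clusters grouped here were chosen after their levels were seen. Clusters 0, 7, 8 and 10, source of 85.5% of Il1b, 92.1% of Il1rn, 91.2% of Il1r2 and 90.3% of Il1a UMIs, held 35.8% (34.0 to 37.6) of saline cells and 22.2% (21.0 to 23.3) of nt-LNA cells. Cluster 0 alone, with 53.0% of Il1a UMIs, held 13.1% (11.9 to 14.4) and 11.9% (11.1 to 12.9). Clusters 7 and 10, with 75.7% of Il1rn and 47.8% of Il1b UMIs, held 15.9% (14.6 to 17.3) and 6.32% (5.66 to 7.04). Clusters 11 and 16, with 62.3% of Il1rl1 UMIs, held 4.74% (3.98 to 5.60) of saline and 6.47% (5.79 to 7.19) of nt-LNA cells. Cluster 11 alone held 3.43% and 4.91%, and cluster 16 held 1.31% (0.92 to 1.81) and 1.56% (1.23 to 1.95). Cluster 3, the main source of Il18r1 and Il18rap, held 9.70% (8.62 to 10.9) and 7.43% (6.71 to 8.20). Shares within a library sum to a fixed whole, the differences have no replicate check, and whether a member's level changed within any of these clusters is not analysed here.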

How the data were processed

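Cells of 1 saline and 1 nt-LNA library were profiled by 10x 3' RNA sequencing on a NovaSeq. The submitters' processing notes name Cell Ranger 2.1.1, Seurat and the build mm9. The deposited counts are whole-number UMIs that the authors summed per gene and cluster over both libraries. A deposited table gives each cell's library, cluster and cell type name. Filters on cells and settings of the clustering: not given in the sources used here. Doublets were not called, as counts per cell would be needed.

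CPM, UMIs per 100 cells, ratios of CPM to the mean of the other 19 clusters, ratios of 2 genes and shares of UMIs and cells were computed in Python 3.11.15 (numpy 2.4.6, pandas 2.3.3, scipy 1.17.1, matplotlib 3.10.9) and tested on simulated data. Intervals are exact at 95% (Poisson, Clopper-Pearson, or conditional for ratios). Neighbours in an order counted as not differing where the interval of their ratio held 1. Genes under 20 UMIs were left out of counts of genes.

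A cluster was called X-like with at least 3 markers of 1 type among its 50 leading genes of at least 50 UMIs, no other list having as many among the leading 10. Clusters 2, 5, 14 and 16 also needed 1 among the leading 10, and vessel wall lists gave no name. That rule was set with the data in view. Named genes are the members, pathway genes at least 2-fold higher where a member is highest, a few always named, and the 3 genes most like each member with at least 200 UMIs. Pathway genes higher in cluster 10, Pycard, Gsdmd and the proteases fall outside that rule and were named after their values were seen. The members and lists were chosen with earlier results of these data known. Alternatives were other scalings, other references, other minimum counts and a 3-fold line.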

Additional observations from a re-analysis of the deposited data

How the results depend on the processing

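The count of 25 pairs of member and cluster at least 2-fold higher stayed between 21 and 28 under other scalings, minimum counts, the pooled reference, a 3-fold line, and without clusters 2, 5, 14 and 16. Within the 9 clusters deposited as Macrophages it was 14 of 90 pairs, with 35 lower (28.6% of the 2-fold pairs were higher, against 16.03%, 25 and 131, over all clusters). Cluster 7 held 5 to 7 such members. With UMIs per cell in place of CPM, cluster 16 held 1 instead of 4 and cluster 10 held 6 instead of 3. Within the Macrophages clusters, cluster 10 held 1. Its Il1rn ratio was 4.15 there, while Il1b went from 2.86 to 1.28 and Il18 from 3.22 to 1.88. In cluster 8, Il1b went from 3.38 to 1.52 and Il1r2 from 4.22 to 1.88, both under the 2-fold line. Shares over all genes were taken in the main setting only. The counts under alternatives therefore cannot be set against all genes. Of 95 values of 18 member ratios under alternatives, 92 stayed on the same side of 1. The exception was Il1b in cluster 0, at 1.18, which became 0.96 against the pooled level, 0.97 without clusters 2, 5, 14 and 16, and 0.53 within the Macrophages clusters. The 18 ratios include each member's highest cluster, and those other than Il1b in cluster 0 were above 2. Staying above 1 was thus largely fixed in advance. Alternative values ran from 0.17 to 8.28 times the main ones. The Il1rl1 ratio of 37.1 in cluster 16 was 8.40 per cell, and that of 6.88 in cluster 11 was 57.0 without clusters 2, 5, 14 and 16, by construction, since cluster 16 leaves its reference. Without those clusters, an alternative added with the data in view, the share of saline cells in cluster 7 went from 8.28% to 9.49%, by construction, since fewer cells are in the denominator. TMM scaling moved clusters by factors of 0.71 (cluster 4) to 1.33 (cluster 14). No paired analysis was possible because each treatment has 1 library and the counts pool both. Depth limits Il1r1 most, whose 49 UMIs resolved no order, and every level in cluster 16.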

Other observations

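Transcripts of proteases that can cut interleukin 1 family precursors outside the inflammasome were highest away from neutrophil-like cluster 7. Transcript levels do not give the amount of protease protein in a cell. Prtn3 (proteinase 3) stood at 244 CPM (208 to 285) in serous cavity macrophage-like cluster 19, on 164 UMIs, against 42.6 CPM in cluster 6, 41.3 CPM in cluster 10 and 7.47 CPM in cluster 7. Elane (neutrophil elastase) had 154 UMIs in all, with 5.78 CPM in cluster 0 and 0.28 CPM in cluster 7. Ctsg (cathepsin G) was highest in cluster 14 at 39.8 CPM (27.0 to 56.5), on 31 UMIs. That cluster was deposited as T cells and had few UMIs per cell, 11.2% of them mitochondrial. The pore protein gene Gsdmd, through which interleukin 1 beta leaves cells, was highest in nonclassical monocyte-like cluster 15 at 67.0 CPM (53.8 to 82.6). These genes were singled out after their values were seen.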
